A study of Mus musculus with 8 samples.

Results

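The microRNAs (miRNAs) mmu-miR-23a, mmu-miR-23b, mmu-miR-24, mmu-miR-27a and mmu-miR-27b, written here without the mouse prefix, come from 2 paralogous gene clusters of the mouse genome. They were found on the arrays by their exact names, and are 5 of the 611 mouse miRNAs measured. All 5 were above background on every array and all 5 passed the filter for testing. The study measured miRNAs in whole kidneys of ICR mice, an outbred strain, 7 days after ligation of one ureter. The UUO group (unilateral ureteral obstruction) held 4 kidneys with an obstructed ureter. The control group held 4 contralateral kidneys, which had no obstruction but came from operated mice, so no kidney of an unoperated or sham-operated mouse was in the comparison. No genotype or drug separated the groups, and the labels give no age. Each kidney's total RNA was labelled with Cy3, a fluorescent dye, and put on a separate 1-colour Agilent array of mouse miRNAs. The labels do not say that the kidneys of a group came from separate mice, so p-values measure only the spread between these samples. The comparison asks which members of these clusters differ in an obstructed kidney, and whether the a and b paralogs differ together.

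Each cluster is transcribed as one primary transcript, from which a miR-23, a miR-27 and a miR-24 hairpin are cut. The mature strand of each hairpin is loaded into an Argonaute protein and pairs through its seed with target messenger RNAs, whose translation and stability it lowers. The clusters are known for their expression in endothelial cells and for roles in blood vessel growth, and miR-27 is also known as a repressor of fat cell differentiation in mouse cells. In mouse kidney, miR-24 has been studied as a promoter of injury after ischaemia and reperfusion.

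In RefSeq's annotation of the mouse assembly GRCm38.p6, the a cluster lies at chr8:84208518-84208921 on the plus strand and holds Mir23a, Mir27a and Mir24-2 within 404 bases. No annotated protein-coding gene spans it, and its nearest annotated neighbour is Zswim4. The b cluster lies at chr13:63300484-63301275 on the plus strand and holds Mir23b, Mir27b and Mir24-1 within 792 bases, inside the bounds of the protein-coding gene Aopep and beside Fancc. The mature strands are shown here because they set which members the arrays can tell apart. They are RefSeq's, written 5′ to 3′ with the seed (bases 2 to 8) in capitals, and were matched by name for 4 of the 5 members and for the minor strands of miR-24.
miR-23a-3p: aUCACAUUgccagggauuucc
miR-27a-3p: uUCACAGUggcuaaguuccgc
miR-27b-3p: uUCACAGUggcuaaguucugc
miR-24-3p: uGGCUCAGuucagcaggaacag
miR-24-2-5p: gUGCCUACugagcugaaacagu
miR-24-1-5p: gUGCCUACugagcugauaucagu

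Mature miR-27a and miR-27b share the seed UCACAGU, and no other mature strand among the 1679 in the RefSeq table has it. They are identical at 20 of 21 bases and differ by C19U, counted from 1 at the 5′ end, with the base of miR-27a first. The seed of miR-23a, UCACAUU, was found in no other strand of the table. The table held no mature strand of miR-23b, however, so the seeds of miR-23a and miR-23b were not compared. Mature miR-24 (seed GGCUCAG, shared with 4 other strands of the table) is the same from both clusters, so its signal cannot be divided between them. The minor strands of miR-24 are cut from the other arm of each hairpin and do differ: they are identical over their first 16 bases and then diverge, and they are 22 bases long from the a cluster and 23 from the b cluster. An asterisk marks a minor strand in the array's naming, so miR-24-2* comes from the a cluster and miR-24-1* from the b cluster. Probe sequences were not used here, and how far a probe for one paralog also binds the other was not measured.

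Levels are given as log2 of the scaled signal: signal was scaled to the array's 75th percentile, taken over the 371 probes above background on all 8 arrays, and a miRNA's probes were summed. A change is thus a change against the brighter miRNAs of that array. The 75th percentile before scaling ranged from 514 to 1595 on the UUO arrays and from 417 to 582 on the control arrays. Of all tested miRNAs, 3 (1.35%) were called higher and 30 (13.5%) lower in UUO kidneys, at an adjusted p under 0.05 in limma's moderated test, and the median change was -0.14. UUO kidney 2 stood apart from its group: over the tested miRNAs its levels had a mean r of 0.887 with the other UUO arrays and of 0.964 with the control arrays. The files do not settle whether its label fits the kidney or how complete its obstruction was, which bears on every UUO value that includes it. Without it 46 miRNAs were called higher and 67 lower, so results are also given without that kidney. The tubule markers miR-192 and miR-194 were above background on all 8 arrays, and miR-215 was above background on none.

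None of the 5 miRNAs passed the test between UUO and control kidneys, against 14.9% of tested miRNAs called in either direction, and none had an unadjusted p under 0.05, as 81 of all tested miRNAs did. Under this scaling the a members averaged higher in UUO kidneys and the b members averaged lower, with miR-24 between them, whereas with no scaling between arrays all 5 averaged higher. For each of the 5 the groups overlapped, whereas the groups did not overlap for 23% of the tested miRNAs. Their median change was 0.011, beside -0.14 over all tested miRNAs.

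miR-27a had log2 levels of 2.54, 1.99, 2.33 and 2.59 in UUO kidneys 1 to 4, against 1.89, 2.15, 2.26 and 1.97 in control kidneys 1 to 4. UUO kidneys 1, 3 and 4 lay above every control kidney, and UUO kidney 2 lay among the control kidneys. The mean was 2.36 ± 0.27 in UUO kidneys and 2.07 ± 0.17 in control kidneys (SD, n = 4 each). The difference was 0.30 ± 0.17 (SE; 95% interval -0.11 to 0.70; limma adjusted p = 0.251). Without UUO kidney 2 the difference was 0.42 ± 0.13 and was called (limma adjusted p = 0.0352), in a comparison that called 50.9% of all tested miRNAs. With normexp background correction as well, it was 0.49 and not called (limma adjusted p = 0.0949). With limma's array weights, which count arrays that depart from their group for less, it was also called, as was miR-23a. UUO kidney 2 had the lowest weight (0.114), and 62.2% of all tested miRNAs were called.

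miR-23a, which shares the primary transcript with miR-27a, had log2 levels of 3.49, 3.08, 3.40 and 3.63 in UUO kidneys, against 3.07, 3.25, 3.30 and 3.24 in control kidneys. The same arrangement was seen, with UUO kidneys 1, 3 and 4 above every control kidney and UUO kidney 2 among them. The means were 3.40 ± 0.23 in UUO kidneys and 3.21 ± 0.10 in control kidneys (SD, n = 4 each), a difference of 0.19 ± 0.15 (SE; 95% interval -0.16 to 0.54; limma adjusted p = 0.393). It was 0.30 ± 0.11 without UUO kidney 2 (limma adjusted p = 0.0564) and 0.11 without UUO kidney 4.

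miR-23b, from the b cluster, had log2 levels of 3.08, 2.95, 3.01 and 3.01 in UUO kidneys, against 3.15, 3.05, 3.40 and 3.20 in control kidneys. Here the UUO kidneys lay close together, and only UUO kidney 1 lay above any control kidney, namely kidney 2. The means were 3.01 ± 0.054 in UUO kidneys and 3.20 ± 0.15 in control kidneys (SD, n = 4 each), a difference of -0.19 ± 0.13 (SE; 95% interval -0.48 to 0.10; limma adjusted p = 0.295). Without UUO kidney 2 it was -0.17 (limma adjusted p = 0.260), and without control kidney 3 it was -0.12.

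miR-27b had log2 levels of 1.58, 1.33, 1.55 and 1.73 in UUO kidneys, against 1.73, 1.64, 1.79 and 1.74 in control kidneys. UUO kidney 4 lay within the control range and the other 3 UUO kidneys lay below it, kidney 2 by the most. The means were 1.54 ± 0.17 in UUO kidneys and 1.73 ± 0.064 in control kidneys (SD, n = 4 each), a difference of -0.18 ± 0.13 (SE; 95% interval -0.48 to 0.12; limma adjusted p = 0.327). Without UUO kidney 2 it was -0.11 (limma adjusted p = 0.397).

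miR-24, the strand made by both clusters, had log2 levels of 3.28, 2.84, 3.21 and 3.33 in UUO kidneys, against 3.13, 3.09, 3.22 and 3.17 in control kidneys. UUO kidney 2 was below every control kidney, kidneys 1 and 4 were above every one, and kidney 3 was within the control range. The means were 3.17 ± 0.22 in UUO kidneys and 3.15 ± 0.056 in control kidneys (SD, n = 4 each). The difference was 0.011 ± 0.15 (SE; 95% interval -0.32 to 0.35; limma adjusted p = 0.958), and 0.12 without UUO kidney 2 (limma adjusted p = 0.315). These intervals bound the change of each member but do not show that any was equal in both groups.

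**Figure D1:**
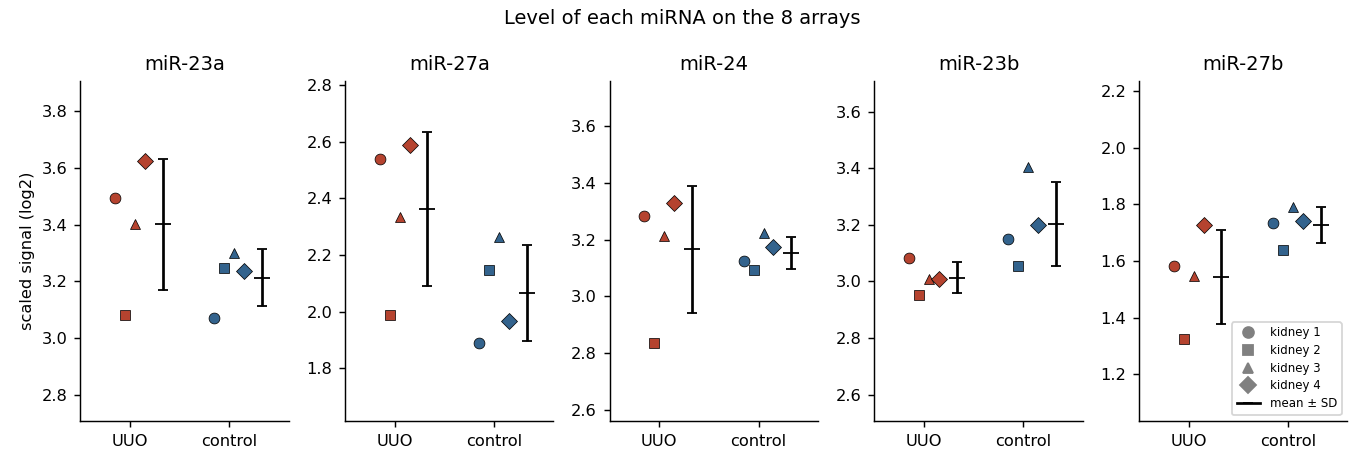
Log2 scaled signal of each miRNA (vertical axis, the same span in every panel) in UUO kidneys (left, red) and control kidneys (right, blue), with 1 point per kidney and the mean ± SD beside each group. Levels of miR-23a and miR-27a are above all control kidneys in UUO kidneys 1, 3 and 4, and UUO kidney 2 (square) is the lowest UUO kidney in every panel.

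Because all of a pair's probes are on the same array, the difference between paralogs within an array does not depend on how that array was scaled by a constant. The level of one probe cannot be set against that of another, so what counts is how this difference moved between groups, not its sign. For miR-27a minus miR-27b it was 0.96, 0.66, 0.79 and 0.86 in UUO kidneys, against 0.15, 0.51, 0.47 and 0.23 in control kidneys. Every UUO kidney, kidney 2 included, lay above every control kidney, while the groups did not overlap in 13.6% of all pairs of tested miRNAs. The mean difference was 0.82 ± 0.12 in UUO kidneys and 0.34 ± 0.18 in control kidneys (SD, n = 4 each). The balance of miR-27a to miR-27b was thus higher in UUO kidneys by 0.48 ± 0.11 (SE), or 1.39-fold. The exact permutation p was 0.0286, two-sided, which is the smallest that 70 assignments of 4 and 4 arrays allow, and it was 0.0571 after Benjamini-Hochberg adjustment over the 2 paralog pairs, above the threshold of 0.05.

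For miR-23a minus miR-23b the within-array difference was 0.41, 0.13, 0.40 and 0.62 in UUO kidneys, against -0.08, 0.19, -0.10 and 0.04 in control kidneys. In this pair 3 of 4 UUO kidneys lay above every control kidney, and UUO kidney 2 was below control kidney 2. The mean difference was 0.39 ± 0.20 in UUO kidneys and 0.011 ± 0.14 in control kidneys (SD, n = 4 each). The balance of miR-23a to miR-23b was higher by 0.38 ± 0.12 (SE), or 1.30-fold. Its two-sided exact permutation p was 0.0571, and the adjusted p over the 2 pairs was 0.0571. Neither pair passed the threshold after adjustment.

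Without UUO kidney 2 the change was 0.53 for the miR-27 pair and 0.46 for the miR-23 pair. The groups then did not overlap in either pair, and the exact permutation p was 0.0286 before and after adjustment over the 2 pairs, the lowest possible with 35 assignments. How many of all pairs of tested miRNAs did not overlap without that kidney was not counted. Of single miRNAs, 50.9% were called without it. With any other kidney left out, neither pair passed the threshold after adjustment. In each of those runs the unadjusted exact permutation p of the miR-27 pair was 0.0286, the smallest possible. After adjustment that pair could pass only where the miR-23 pair also reached 0.0286. The slide held kidneys 1 and 2 of both groups in row 1 and kidneys 3 and 4 of both in row 2. The change of the miR-27 pair was 0.48 within row 1 and 0.48 within row 2, and that of the miR-23 pair was 0.22 within row 1 and 0.54 within row 2. With 2 arrays against 2, no exact permutation p below 0.333 was possible within a row. With the row as a block the exact permutation p was 0.0556 for the miR-27 pair and 0.111 for the miR-23 pair. With that block 0.0556 was the smallest possible, so neither pair could have reached 0.05. For the single members, changes within row 1 and within row 2 had the same sign, except for miR-24 (-0.051 in row 1 and 0.073 in row 2).

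The minor strands of miR-24 give the remaining comparison of the 2 clusters, chosen with these data in view and given with no test. miR-24-2* minus miR-24-1* was -0.47, -0.79, -0.27 and -0.14 in UUO kidneys, against -1.26, -0.84, -1.02 and -0.87 in control kidneys. Every UUO kidney lay above every control kidney, kidney 2 by the least. Over all pairs of tested miRNAs, the groups did not overlap in 13.6%. The balance of the a strand to the b strand was higher by 0.58 ± 0.17 (SE). Both strands were dim, and one of the 2 probes for miR-24-2* was above background on 3 UUO arrays and on 0 control arrays. The change was 0.044 when background was corrected with normexp, whose added offset of 50 per spot is of the order of these strands' signals. The groups then overlapped, as they also did after quantile normalization (0.55). Of the 4 combinations of single probes, the groups overlapped in the 2 that held the dimmer miR-24-2* probe (0.28 and 0.20) and not in the other 2 (0.66 and 0.58).

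**Figure D2:**
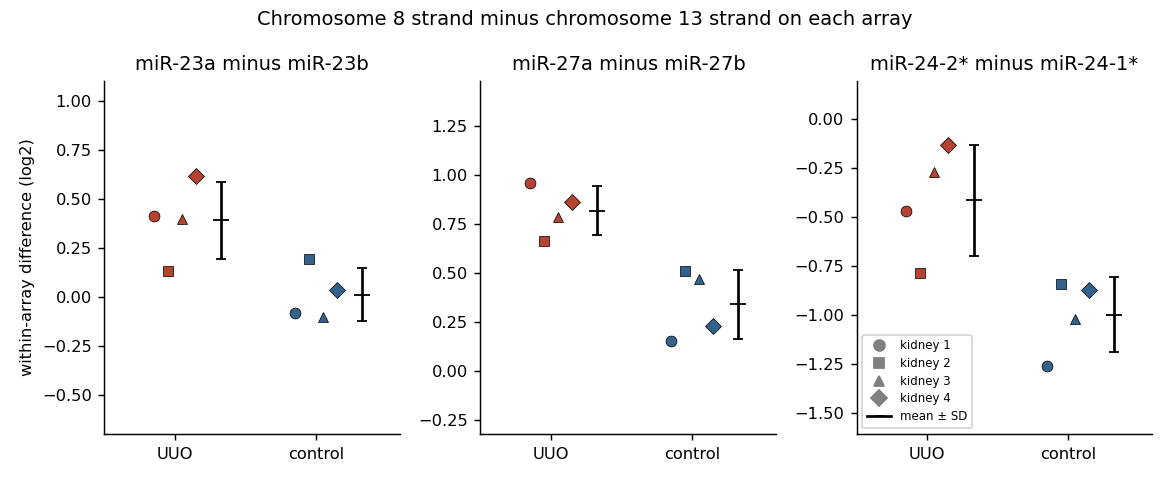
Within-array log2 difference (vertical axis) between the strand from the chromosome 8 cluster and its counterpart from the chromosome 13 cluster in UUO kidneys (left, red) and control kidneys (right, blue), with 1 point per kidney and the mean ± SD beside each group. The groups do not overlap for miR-27 and for the minor strands of miR-24, and for miR-23 only UUO kidney 2 (0.13) lies within the control range.

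By itself miR-24-2* had log2 levels of -3.91, -4.31, -3.90 and -3.70 in UUO kidneys, against -4.84, -4.07, -4.34 and -4.42 in control kidneys. UUO kidneys 1, 3 and 4 again lay above every control kidney. The difference was 0.46 ± 0.21 (SE; limma adjusted p = 0.149), and 0.58 without UUO kidney 2 (limma adjusted p = 0.0385). With normexp it was -0.84, and miR-24-1* then changed by -0.89. The offset of 50 that normexp added to every spot is of the order of the unscaled signals of the miR-24-2* probes (5.71 to 76.9). No smaller offset was tried, and the parts of the offset and of the background correction in this turn of direction were not told apart. The direction of the miR-24-2* change thus differed between settings. miR-24-1* had levels between -3.63 and -3.44 in UUO kidneys, against -3.57 to -3.23 in control kidneys, with a difference of -0.12 ± 0.13 (SE; limma adjusted p = 0.540) that was -0.062 without control kidney 2. The minor strands miR-27a* and miR-27b* were above background on none of the 8 arrays, and the names miR-23a* and miR-23b* were not found among the probes analysed here.

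Each of the 5 miRNAs was measured with 2 probes of 10 spots each. The coefficient of variation over the spots of a probe on one array ranged from 1.42% to 21.0%, with a median of 6.08% over probes. The 2 probes of a member changed in the same direction for all 5. For miR-27a they differed by 0.32 and 0.29, for miR-23a by 0.10 and 0.21, and for miR-24 by 0.0040 and 0.016. For miR-23b both probes gave -0.19, and for miR-27b they gave -0.18 and -0.20. The change of the miR-27 pair lay between 0.47 and 0.52 for all 4 combinations of one miR-27a probe with one miR-27b probe, and the groups did not overlap in any of them. For the miR-23 pair the 4 combinations gave 0.29 to 0.40, and the groups overlapped in all 4.

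**Figure D3:**
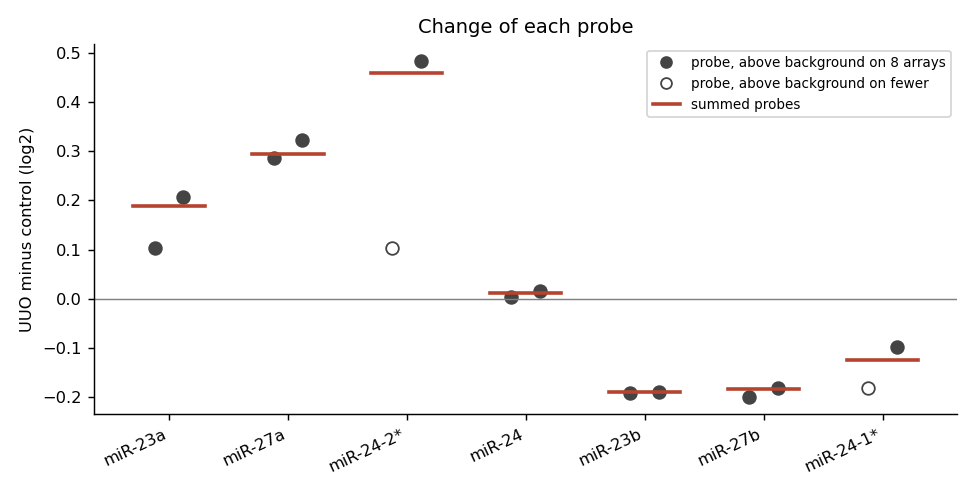
Log2 change, UUO minus control (vertical axis), of each probe (points) and of the summed probes (red bars) for 7 strands. Filled points are probes above background on all 8 arrays, and both probes of each member lie on the same side of 0.

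Changes lay closer together within a cluster than between paralogs. miR-23a minus miR-27a changed by -0.11 ± 0.058 and miR-23b minus miR-27b by -0.0074 ± 0.085 (SE), beside 0.38 for miR-23a minus miR-23b and 0.48 for miR-27a minus miR-27b. These differences share miRNAs, and the difference between them was not tested. Of all 10 pairs of the 5 miRNAs, the groups did not overlap in 5: miR-27a minus miR-27b, miR-23a minus miR-27b, miR-23a minus miR-24, miR-24 minus miR-27a and miR-24 minus miR-27b. Over all 24531 pairs of tested miRNAs the share was 13.6%. Relative to miR-24, miR-23a was higher in UUO kidneys by 0.18 ± 0.049 and miR-27b was lower, with miR-24 minus miR-27b higher by 0.19 ± 0.044 (SE). miR-24 minus miR-27a changed by -0.28 ± 0.085 (SE), so the change of miR-24 lay between those of miR-27b and miR-27a.

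Across the 8 arrays the levels of miR-23a and miR-27a had a Pearson r of 0.958 (Spearman's rho 0.976). For miR-23b and miR-27b, r was 0.720 (rho 0.905). The paralogs did not track each other in this way: r was -0.130 for miR-23a with miR-23b (rho -0.143) and 0.0864 for miR-27a with miR-27b (rho -0.238). These values describe 8 arrays that share a slide, a scaling and the difference between the groups, and they were not computed under another scaling. Mature miR-24 had an r of 0.807 with miR-23a and 0.708 with miR-27a, against 0.313 with miR-23b and 0.696 with miR-27b. Its r with miR-27b rested on UUO kidney 2, without which it was -0.0574 over 7 arrays, while its r with miR-23a was 0.898 and with miR-27a 0.861. The dim strand miR-24-2*, from the a cluster, had an r of 0.867 with miR-23a and 0.877 with miR-27a, against -0.447 with miR-23b and -0.186 with miR-27b. miR-24-1*, from the b cluster, had an r of 0.382 with miR-23b and 0.175 with miR-27b.

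**Figure D4:**
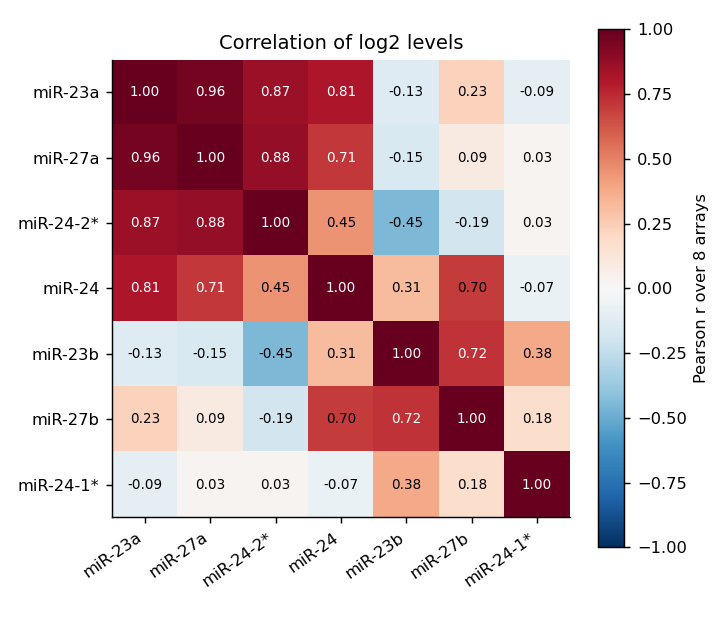
Pearson r of log2 levels over the 8 arrays for every pair of 7 strands (rows and columns), coloured from -1 (blue) to 1 (red). The a cluster's miR-23a, miR-27a and miR-24-2* form a block with r between 0.867 and 0.958, and miR-23b and miR-27b have an r of 0.72 with each other.

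Among tested miRNAs outside the clusters, the level nearest to that of miR-27a over the 8 arrays was miR-92a (r = 0.980), followed by miR-20a (0.965), miR-31 (0.953), miR-34b-5p (0.934) and miR-18a (0.934). miR-92a, miR-20a and miR-18a belong to the miR-17-92 cluster, whose members are known for promoting cell proliferation. For miR-23a the nearest were miR-181c (0.953), miR-350 (0.948), miR-497 (0.947), miR-199b* (0.945) and miR-18a (0.941). For miR-24 they were miR-125b-5p (0.960), miR-100 (0.959), miR-532-3p (0.959), miR-503 (0.953) and miR-152 (0.951).

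The b members had other neighbours. miR-27b was nearest to miR-126-3p (r = 0.933), the endothelial miRNA, followed by miR-374 (0.867), miR-450a-5p (0.844), miR-222 (0.83) and miR-335-5p (0.820). Without UUO kidney 2 the r of miR-27b with miR-126-3p was 0.930, while that with miR-374 was 0.575 and that with miR-335-5p was 0.528. miR-23b was nearest to let-7d (0.948), miR-34a (0.897), let-7a (0.896), let-7f (0.884) and miR-218 (0.877). All of these are the highest of many correlations and carry no test. Many also moved with normexp, which added an offset of 50 to every spot before scaling and so weighs most on dim miRNAs. With it, 14 of the 25 had an r below 0, among them that of miR-24 with miR-532-3p (-0.744) and that of miR-23a with miR-181c (-0.647). The parts of the background correction and of the offset in this were not told apart. With quantile normalization the r of miR-23b with let-7d was -0.220. With no scaling between arrays the 25 ranged from 0.899 to 0.997, so the size of r also depended on the scaling. Under normexp the r of miR-24 with miR-125b-5p was 0.974 and that of miR-27b with miR-126-3p was 0.897.

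Since the clusters are known from endothelium, other miRNAs associated with endothelial cells and blood vessel growth were set beside them. Of 10 such miRNAs 9 were tested, of which 0 were called higher and 2 lower, beside 1.35% higher and 13.5% lower of all tested miRNAs, with a median change of -0.30 beside -0.14 over all tested miRNAs. The 2 were miR-126-5p, the minor strand of the endothelial miR-126 precursor, at -0.81 ± 0.18 (SE; limma adjusted p = 0.0266), and miR-221, at -0.44 ± 0.11 (SE; limma adjusted p = 0.0335). Both calls were lost without UUO kidneys 1 or 3, or control kidneys 1, 3 or 4, and that of miR-221 also without UUO kidney 4 or control kidney 2. With no scaling both changes lay above 0 (0.074 and 0.44). The 4 brightest of the others were not called: miR-126-3p had a mean scaled signal of 11.1 in UUO kidneys and 13.6 in control kidneys, miR-130a 3.65 and 3.26, miR-92a 2.90 and 2.21, and miR-378 0.869 and 1.59, in the same order of groups. Without UUO kidney 2, miR-92a was called at 0.56 and miR-378 at -1.35 (limma adjusted p = 0.0259 and 0.00123). With all arrays, the largest changes of the list were upward and not called. They were those of miR-132, at 1.72 ± 0.88, and miR-210, at 1.11 ± 0.81 (SE; limma adjusted p = 0.201 and 0.337).

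Marker miRNAs of other cell types were read on the same arrays. No marker of leukocytes, fibroblasts, erythroid cells or muscle was called, beside 14.9% of all tested miRNAs, and the groups overlapped in each of those sums. The summed scaled signal of the 4 tubule markers was 4.37 to 8.65 in UUO kidneys, against 11.6 to 17.1 in control kidneys, with 2 of the 3 tested called lower, beside 13.5% of all tested miRNAs. A sum adds the signals of different probes, so its brightest miRNA weighs most: here miR-192, at a mean of 5.09 in UUO kidneys and 11.9 in control kidneys, while miR-204 differed by -0.12 (limma adjusted p = 0.755). The sum over 7 leukocyte markers was 1.88 to 7.69 in UUO kidneys, against 1.98 to 2.71 in control kidneys. It was at its lowest in UUO kidney 2 and at least 6.84 in the other 3 UUO kidneys. The sum over 4 miRNAs of fibroblasts and fibrosis was 27.8 to 118 in UUO kidneys, against 34.5 to 62.6 in control kidneys, with UUO kidney 2 again lowest and the others at 89.3 or more. Most of it was miR-21, at a mean of 74.0 in UUO kidneys and 38.7 in control kidneys. The erythroid markers summed to 5.15 to 24.4 in UUO kidneys, against 5.16 to 44.6 in control kidneys, those of smooth muscle to 0.938 to 1.95 against 1.19 to 1.501, and those of striated muscle to 0.0485 to 0.0630 against 0.0539 to 0.0931. The sum over both miR-126 strands was 9.57 to 13.2 in UUO kidneys, against 12.1 to 15.2 in control kidneys. UUO kidney 2, which was low for leukocyte and fibroblast markers, was also the UUO kidney in which miR-23a and miR-27a lay among the controls. In whole kidneys, fewer cells of a type and less RNA per cell cannot be told apart, and the part of these cell types in the balance of the clusters was not tested.

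The direction of miR-23b and miR-27b depended on the scaling, and that of miR-24, whose change was near 0, also turned (-0.0073) when arrays were scaled over all mouse probes. miR-23a and miR-27a stayed above 0 under every alternative run. With no scaling between arrays, the median change of all tested miRNAs moved by 0.88, and miR-23b and miR-27b changed by 0.69 and 0.70, no longer below 0. The order of the 5 members was the same with and without scaling, since an array's constant cancels between them. With normexp, miR-27a changed by 0.35, miR-23a by 0.28, miR-24 by 0.11, miR-23b by -0.09 and miR-27b by -0.14.

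**Figure D5:**
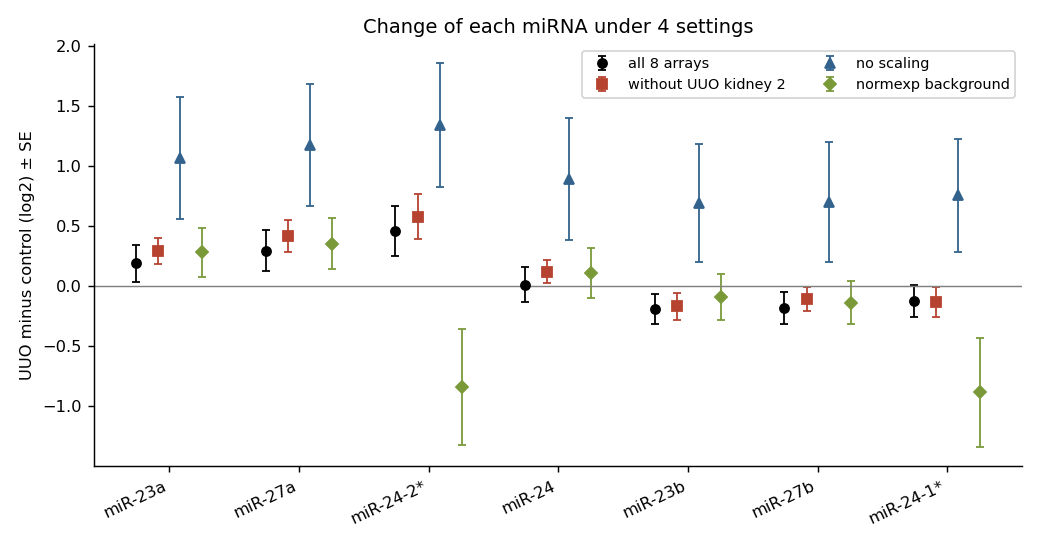
Log2 change, UUO minus control, ± SE (vertical axis) of 7 strands with all 8 arrays, without UUO kidney 2, with no scaling and with normexp background correction. All members move up together with no scaling, while the a members stay above the b members in each of the 4 settings.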

How the data were processed

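Spot intensities from the 8 arrays were analysed as the authors deposited them. The software was Agilent Feature Extraction (10.1.1 in the submitters' processing notes, 10.7.3.1 in the headers). Local background had been subtracted, per the file headers, and arrays had not been scaled to each other. Outlier, saturation and background marks per spot were also deposited. Outlier spots (2.34% to 3.52% per array) were left out and spots of a probe averaged, which gave 1759 probes. A probe was above background when over 50% of its spots were marked so. Scaled probes of a miRNA were summed, raised to at least 0.0213 and put on a log2 scale. The 222 miRNAs above background on all 4 arrays of a group were tested with limma 3.58.1 in R 4.3.3, with Benjamini-Hochberg adjustment, after a check on simulated data. Paralog differences were tested by exact permutation. Normexp, an alternative, used median signals in place of absent mean signals and added an offset of 50 to every spot before scaling. The array count limits precision.

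The members and the miRNA lists were chosen with earlier results of these data known. The miRNAs named are the 5 members, their minor strands, the 5 with the highest r with each member and up to 2 markers per cell type (4 for tubules). Of the endothelial list they are the called ones, the 4 brightest others and the 2 with the largest changes. Kidneys with the same number were not shown to be paired: the r of their deviations from the group means was -0.35, 0.22, 0.62 and 0.015 for numbers 1 to 4. Sequences and coordinates are RefSeq's, on GRCm38.p6.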

Additional observations from a re-analysis of the deposited data

How the results depend on the processing

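The change of the miR-27 pair stayed above 0 under every alternative run, from 0.42 to 0.53, and that of the miR-23 pair from 0.22 to 0.54. Leaving out 1 kidney gave 0.42 to 0.53 for the miR-27 pair and 0.30 to 0.46 for the miR-23 pair. Without UUO kidney 2 (0.53 and 0.46), which was singled out on these same data, both passed the threshold. With any other kidney left out neither pair passed (adjusted exact permutation p of 0.0571 or 0.0857). The unadjusted exact permutation p of the miR-27 pair was 0.0286, the smallest possible, in each of those runs. With the replicate number as a block the exact permutation p was 0.125 and 0.25, where 0.125 is the smallest possible. The 33 calls over all miRNAs were 0 after scaling over all mouse probes (56 at an unadjusted p under 0.05), 0 with normexp (54), 0 with the replicate number as a block (67) and 0 within slide row 1 (1). They were 3 with no scaling, 3 with quantile normalization, 3 with the summed gene signal, 17 with no filter on dim miRNAs, 69 within slide row 2 and 138 with array weights. Leaving out 1 kidney gave 0 to 113 calls: 113 without UUO kidney 2, 20 without control kidney 2, 14 without UUO kidney 4 and 0 without each of the other 5. With array weights (0.114 for UUO kidney 2), miR-27a changed by 0.42 and miR-23a by 0.25, and both were called (limma adjusted p = 0.0124 and 0.0451). Leaving out 1 kidney gave 0.22 to 0.42 for miR-27a (called, at 0.42, only without UUO kidney 2), 0.11 to 0.30 for miR-23a, -0.04 to 0.12 for miR-24, -0.24 to -0.12 for miR-23b, -0.24 to -0.11 for miR-27b and -0.18 to -0.062 for miR-24-1*. miR-24 changed by -0.0073 after scaling over all mouse probes and -0.051 within slide row 1. It was -0.0088 without control kidney 2, and -0.028, -0.0048 and -0.044 without UUO kidneys 1, 3 and 4. With no scaling the sign turned for miR-23b (0.69), miR-27b (0.70), miR-24-1* (0.76), miR-126-3p (0.58), miR-126-5p (0.074) and miR-221 (0.44). With quantile normalization it turned for miR-27b (0.015) and miR-126-3p (0.028), and with normexp for miR-24-2* (-0.84). With no scaling and without UUO kidney 2, a pair of settings chosen after seeing the data, the changes were 1.47 for miR-23a, 1.00 for miR-23b, 1.29 for miR-24, 1.59 for miR-27a and 1.06 for miR-27b, and all 5 were called (limma adjusted p = 0.00440, 0.0449, 0.0101, 0.00196 and 0.0361), beside 113 miRNAs called higher and 2 lower, while the median of all tested miRNAs moved by 1.15. The median moved by 0.88 with no scaling, -0.48 with normexp, 0.12 with the summed gene signal and 0.14 with no filter. Of the 25 correlations with the nearest miRNAs, chosen after seeing the data, those of miR-27a with miR-92a and miR-20a and that of miR-24 with miR-125b-5p stayed above 0.90 under the 4 settings tried. The cause of these differences was not tested.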
